A study of Rattus norvegicus with 6 samples.

Results

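The 54 genes described here run mitosis and DNA replication, and they were measured in the renal cortex of rats given water or nitrilotriacetic acid trisodium monohydrate (NTA), a metal chelator. They were listed by symbol, 28 as mitotic genes and 26 as replication genes, and their probes were found by matching the transcript accessions on the array to the rat RefSeq gene table. Of the 54, 48 had at least 1 probe named in this way, out of 15284 genes in all, and 24 of the 48 were mitotic and 24 replication genes. The other 6 (Top2a, Bub1b, Cenpe, Melk, Mcm5 and Uhrf1) had no probe named here, so no array value is given for them. All 48 passed the filter on dim probes, which kept 11965 genes. All animals were male Sprague-Dawley (Crl:CD(SD)) rats, 5 weeks old at purchase. For 4 weeks 3 of them received water and 3 received NTA at 1000 mg/kg/day, and the series text calls the animals biological replicates. Each animal gave 1 one-colour array of total RNA, named below by group and replicate number (water 1 to 3, NTA 1 to 3).

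Most tubule cells of an adult kidney are not dividing, and after injury the surviving cells can re-enter the cell cycle and replace those that were lost. A dividing cell first licenses and fires replication origins and raises its nucleotide supply under the control of E2F factors (S phase), and later makes the cyclins, kinases and spindle motors of G2 phase and mitosis, whose genes are switched on late in the cycle by the MuvB complex with B-MYB and FOXM1. The mRNAs of the mitotic group are therefore usual markers of cells in G2 phase and mitosis. Many replication genes encode proteins that also serve DNA repair, so their mRNA is less tied to division.

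Array values are log2 processed signal minus the log2 of the same array's 75th percentile. A value of 0 thus lies at that percentile, and values of different genes are not compared, since probes differ in brightness. The share of the 61657 probes that exceeded background clearly ran from 68.4% to 73.5% per array. Markers of proximal tubule, the main cell type of the cortex, were in place, with log2 values of 6.44 to 6.55 for Lrp2 (megalin) and 8.40 to 8.58 for Slc34a1 (the sodium-phosphate cotransporter), and all 8 of 8 listed proximal tubule markers were tested. The arrays lay on 3 slides, per the file names. Water 2 and water 3 shared slide 1, NTA 1 and NTA 3 shared slide 2, and water 1 and NTA 2 shared slide 3, which was scanned on another day than the rest.

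The mean level of mitotic and replication genes did not separate NTA from water, while the 3 NTA animals lay far apart in the mitotic genes. None of the 48 members passed the test of NTA against water (limma, Benjamini-Hochberg adjusted p under 0.05), against 0.0752% of all genes tested, and 2 of 48 had an unadjusted limma p under 0.05, against 12.3% of all genes. A mitotic score was computed for each array as the mean over 24 genes of the log2 value minus that gene's mean over the 6 arrays, and it was 0.05, -0.12 and 0.06 in water and -0.38, 0.37 and 0.03 in NTA. The water arrays lay within 0.17 of each other and the NTA arrays spanned 0.75, with NTA 1 below and NTA 2 above all 3 water arrays. The group means differed by 0.01 (SD 0.10 in water and 0.37 in NTA, n = 3 each).

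The replication score, computed the same way over 24 genes, was -0.08, 0.01 and -0.11 in water and -0.03, 0.16 and 0.04 in NTA. NTA 2 was again the highest array, but the NTA arrays spanned 0.19 and NTA 1 lay inside the range of the water arrays. The group means differed by 0.12 (SD 0.07 in water and 0.10 in NTA), and the groups overlapped. The mitotic minus the replication score was 0.12, -0.13 and 0.17 in water and -0.35, 0.20 and -0.01 in NTA. The mitotic genes were thus low relative to the replication genes in NTA 1, below all 3 water arrays. NTA 2 was the highest array but lay only slightly above water 3 (0.20 against 0.17), and NTA 3 lay within the water range. Over all 48 members, the proliferation score was -0.02, -0.05 and -0.03 in water and -0.20, 0.26 and 0.04 in NTA, a difference of 0.06 between group means. In this bulk tissue fewer cells in cycle and less RNA per cycling cell cannot be told apart.

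**Figure D1:**
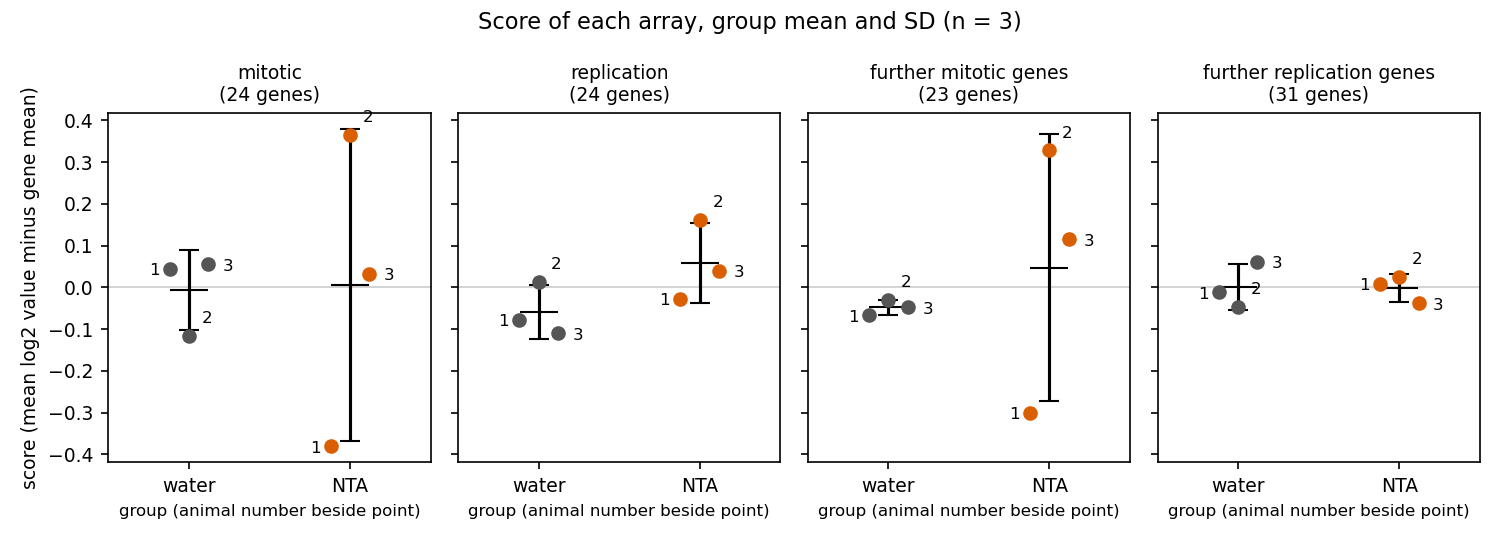
Score of each array (mean over the genes of the log2 value minus the gene's mean over 6 arrays), for the 24 mitotic and 24 replication members and for 23 further mitotic and 31 further replication genes that are not members. Points are arrays with the animal number beside them, and the bars are group means with SD (n = 3). In both mitotic panels NTA 1 is the lowest array and NTA 2 the highest.

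The split was shared by most mitotic genes. NTA 1 was the lowest of the 6 arrays for 20 of 24 mitotic members (83.3%), against 16.8% of all genes tested and 4 of 24 replication members. NTA 2 was the highest array for 19 of 24 (79.2%), against 22.5% of all genes and 12 of 24 replication members. Both held for 15 of 24 (62.5%), against 3.99% of all genes. NTA 2 lay above NTA 1 for all 24 mitotic members, with a median gap of 0.79 on the log2 scale, where the median gap over all genes was 0.01. This order of the arrays was noticed in these data and was not tested, and the genes are not independent of each other, since all 24 were read on the same arrays.

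**Figure D2:**
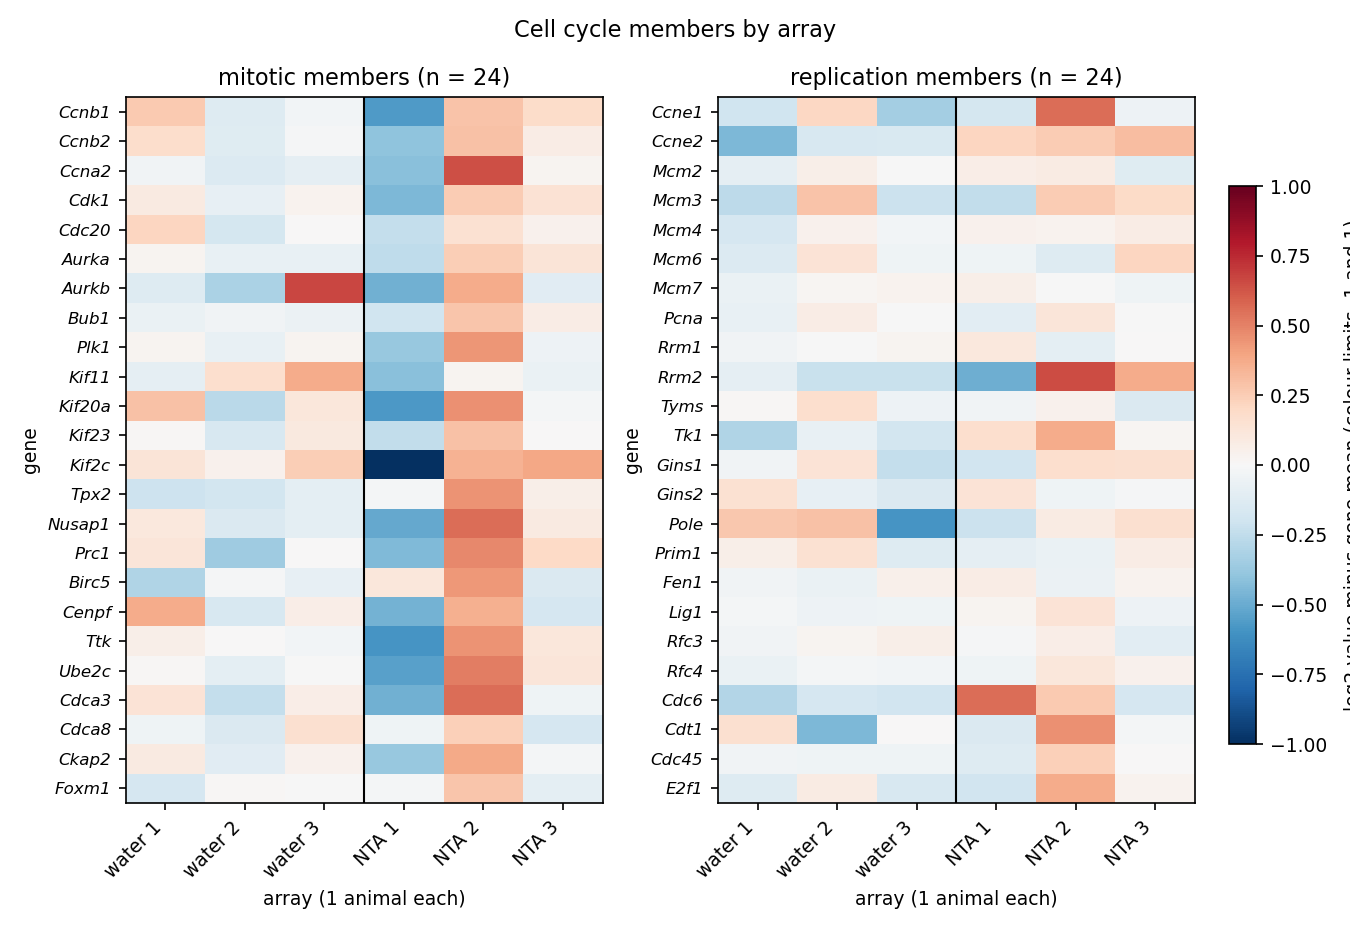
Log2 value minus the gene's mean over the 6 arrays, for the 24 mitotic (left) and 24 replication members (right) with a named probe, 1 column per array. Red is above and blue below the gene's mean, with colours limited at -1 and 1. Most mitotic genes are blue in NTA 1 and red in NTA 2, while most replication genes are pale in all columns.

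A list of 36 further mitotic genes, none of them a member, was read the same way, and 23 of them were tested. Their score was -0.07, -0.03 and -0.05 in water and -0.30, 0.33 and 0.12 in NTA, with NTA 1 the lowest array for 14 of 23 and NTA 2 the highest for 16 of 23. A list of 38 further replication genes, of which 31 were tested, did not show the split, with scores of -0.01, -0.05 and 0.06 in water and 0.01, 0.03 and -0.04 in NTA. The proliferation marker Mki67, which belongs to the first list, had no probe named here.

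Promoter sequences of the members are shown because most mitotic genes shared the order of the arrays, which the replication genes shared in part. As background, the MuvB complex binds the CHR element of late cell cycle promoters, often near CCAAT boxes bound by NF-Y, and E2F sites are typical of S-phase promoters. Windows of 300 bases (250 before and 50 after each annotated start) came from RefSeq on GRCr8. Of the 54 members, 44 had an entry, with 47 windows. These include Top2a, Bub1b, Cenpe, Mcm5 and Uhrf1, which have no array value here. The shares below are thus not limited to genes whose order of the arrays was seen. Letters were searched on both strands. The CHR was searched as TTTGAA and, in its other form, as TTCGAA, and the CCAAT box by the letters of its name. The E2F site was searched as TTCGCGC, in another form as TTGGCGC, in another still as TTCCCGC, and in the last as TTGCCGC. Matches of different motifs overlapped in 3 member windows, 1 for CHR with CCAAT and 2 for CCAAT with E2F. CHR letters were in 14 of 24 mitotic windows (58.3%) and 4 of 23 replication windows (17.4%), against 19.7% of all 33469 windows in the table. E2F letters were in 3 of 24 mitotic windows (12.5%) and 17 of 23 replication windows (73.9%), against 9.52% of all. CCAAT was in 18 of 24 mitotic windows, 15 of 23 replication windows (65.2%) and 37.5% of all windows, and CCAAT together with CHR letters in 54.2%, 13.0% and 7.95%. A match describes letters and is not a site, and where there is none, only these letters are missing from this window.

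The stretches below, 30 bases each on the gene's strand with the matched letters in capitals, show the CHR letters in 4 mitotic promoters. They encode the APC/C coactivator Cdc20 (chr5:137255833-137255862, minus strand), the spindle midzone bundler Prc1 (chr1:143659451-143659480, plus strand), the chromosomal passenger protein Birc5 (chr10:103572126-103572155, plus strand) and the spindle protein Ckap2 (chr16:76541976-76542005, plus strand). The matches begin -51, -18, -8 and -126 bases from the annotated start, in that order. These genes and those of the next set were chosen after their values were seen. Prc1 and Ckap2 were lowest in NTA 1 and highest in NTA 2. Birc5 was lowest in water 1, and Cdc20 was highest in water 1. A link between the letters and the order of the arrays was not tested.
Cdc20: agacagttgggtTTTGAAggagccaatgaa
Prc1: cctccggctcggTTTGAAttccgcggggtc
Birc5: ccgcccgcgggtTTTGAAttagggattgtg
Ckap2: gcagggtttgatTTTGAAatttctccgggc

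The next set shows the E2F letters in 6 replication promoters. They encode the replicative helicase subunits Mcm2 (chr4:122918086-122918115, minus strand), Mcm3 (chr9:30733734-30733763, minus strand) and Mcm7 (chr12:22163208-22163237, minus strand), the flap endonuclease Fen1 (chr1:216274412-216274441, minus strand), the thymidylate synthase Tyms (chr9:120776101-120776130, minus strand) and the helicase cofactor Gins1 (chr3:160184888-160184917, plus strand). The matches begin -10, -6, -48, -34, -36 and -21 bases from the start, in that order.
Mcm2: acccggttttcGCGCGAAaacccgtggcag
Mcm3: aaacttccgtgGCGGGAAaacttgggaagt
Mcm7: gacgacgtttcGCGCCAAtttcggttggag
Fen1: ccaggaggctgTTCGCGCctggtaggtcac
Tyms: aggtgcgggttTTGGCGCcgactacactgc
Gins1: aagcctatttgGCGCCAAagagaggagctg

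Whole stretches of 250 bases before the start are given for 4 genes, with all matched letters in capitals. Kif11, at chr1:244536617-244536866 (plus strand), and Tk1, at chr10:103544778-103545027 (minus strand), had the smallest p of the mitotic and of the replication members with an entry. Cdk1, at chr20:19265043-19265292 (plus strand), and Mcm6, at chr13:42404353-42404602 (minus strand), were chosen after their values were seen. The Cdk1 stretch holds 2 CHR, 3 CCAAT and 2 E2F matches, and the Mcm6 stretch 2 CCAAT and 4 E2F matches, which overlap in pairs on opposite strands. Kif11 has 1 CCAAT match and Tk1 none.
Kif11: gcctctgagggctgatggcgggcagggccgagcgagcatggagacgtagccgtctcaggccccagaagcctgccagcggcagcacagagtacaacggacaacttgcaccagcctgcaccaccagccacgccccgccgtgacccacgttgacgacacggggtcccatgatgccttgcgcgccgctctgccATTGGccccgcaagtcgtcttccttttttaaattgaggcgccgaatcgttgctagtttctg
Tk1: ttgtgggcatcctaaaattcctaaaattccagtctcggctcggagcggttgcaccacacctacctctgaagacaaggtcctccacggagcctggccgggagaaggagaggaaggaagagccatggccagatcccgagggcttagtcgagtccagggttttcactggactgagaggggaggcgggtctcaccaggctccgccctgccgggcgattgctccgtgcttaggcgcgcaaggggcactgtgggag
Cdk1: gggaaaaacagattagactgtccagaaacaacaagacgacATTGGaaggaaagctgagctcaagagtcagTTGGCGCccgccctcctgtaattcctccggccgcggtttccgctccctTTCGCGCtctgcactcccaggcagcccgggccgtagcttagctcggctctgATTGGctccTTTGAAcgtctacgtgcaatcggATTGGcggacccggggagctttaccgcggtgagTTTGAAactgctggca
Mcm6: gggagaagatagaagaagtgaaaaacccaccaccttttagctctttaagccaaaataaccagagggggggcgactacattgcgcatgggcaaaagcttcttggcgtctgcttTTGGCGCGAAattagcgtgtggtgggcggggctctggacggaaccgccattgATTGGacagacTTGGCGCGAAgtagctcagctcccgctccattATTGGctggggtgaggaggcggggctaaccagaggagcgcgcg

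Among the mitotic genes, the cyclins and their kinase showed the split in all 4 cases, with NTA 1 lowest and NTA 2 highest. Cdk1, the kinase that drives entry into mitosis, stood at 0.79, 0.62 and 0.74 in water and 0.25, 0.96 and 0.85 in NTA. Ccna2, the S and G2 phase cyclin, stood at -1.44, -1.55 and -1.50 in water and -1.83, -0.77 and -1.38 in NTA, and its signal was 2.08 times as high in NTA 2 as in NTA 1. For both genes the water arrays lay close together between the extreme NTA arrays. Ccnb1, the mitotic cyclin B1, stood at -2.36, -2.75 and -2.65 in water and -3.19, -2.34 and -2.44 in NTA. Its relative Ccnb2 was 1.62 times as high in NTA 2 as in NTA 1. The low and the high NTA animal averaged out, and the group differences were -0.03 ± 0.19 for Cdk1 (log2 NTA minus water ± SE, limma adjusted p = 0.965), 0.17 ± 0.26 for Ccna2 (0.83) and -0.07 ± 0.25 for Ccnb1 (0.946).

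Of the mitotic kinases and checkpoint genes, all 5 tested were lowest in NTA 1, and 4 of 5 were highest in NTA 2. Plk1, the polo-like kinase of spindle assembly and mitotic exit, stood at -0.27, -0.37 and -0.27 in water and -0.68, 0.14 and -0.35 in NTA. Ttk, the spindle checkpoint kinase, spanned 2.05-fold from NTA 1 to NTA 2, and Aurka, the centrosomal Aurora kinase, 1.41-fold. Aurkb, the kinase of the chromosomal passenger complex, was the exception for the highest array and stood at -5.43, -5.62 and -4.64 in water and -5.79, -4.94 and -5.42 in NTA. Here water 3 was the highest array and the water SD (0.52) was above the NTA SD (0.43), the only mitotic member with that order. The group differences of this set ran from -0.15 for Aurkb to 0.11 for Bub1, a checkpoint kinase at the kinetochore.

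The spindle and cytokinesis genes included the extremes of the group comparison. Tpx2, which activates Aurora A on spindle microtubules, stood at -3.43, -3.41 and -3.32 in water and -3.24, -2.78 and -3.16 in NTA. It was the 1 mitotic member whose groups did not overlap (13.0% of all genes were higher in NTA without overlap), with a difference of 0.32 ± 0.13 (adjusted p = 0.409). Kif11, the plus-end motor that separates the spindle poles, stood at 1.95, 2.21 and 2.41 in water and 1.62, 2.07 and 1.97 in NTA, overlapping, with a difference of -0.30 ± 0.17 (adjusted p = 0.516). Kif2c, a microtubule depolymerase at the centromere, stood at -4.84, -4.92 and -4.72 in water and -6.12, -4.62 and -4.58 in NTA, and its probe was not well above background in NTA 1, so that 2 of 3 NTA arrays measured it. The fitted difference of -0.28 ± 0.43 and the NTA SD of 0.88 rest on that array, and under normexp the difference was -0.07. NTA 1 was the lowest array for 7 of 8 genes of this set, with Tpx2 as the exception, and NTA 2 the highest for 6 of 8.

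NTA 1 was the lowest array for all 3 genes of protein destruction in mitosis and for 1 of 3 genes of chromosome structure. Cdc20, which activates the anaphase-promoting complex, stood at -0.05, -0.44 and -0.26 in water and -0.51, -0.11 and -0.22 in NTA, with NTA 1 lowest and water 1 highest. Ube2c, the ubiquitin-conjugating enzyme of that complex, was 2.08 times as high in NTA 2 as in NTA 1, and Cdca3, a trigger of mitotic entry, 2.05 times. Birc5 (survivin), a chromosomal passenger protein, stood at -0.89, -0.61 and -0.68 in water and -0.48, -0.17 and -0.74 in NTA, with NTA 1 above all water arrays and a difference of 0.27 ± 0.16 (adjusted p = 0.562). Cenpf, a kinetochore protein, was lowest in NTA 1 and highest in water 1, with a difference of -0.19 ± 0.24 (adjusted p = 0.8). Foxm1, the transcription factor of mitotic genes, stood at -1.49, -1.32 and -1.33 in water and -1.34, -1.05 and -1.42 in NTA. NTA 2 was its highest array, but NTA 1 lay among the water arrays, as it did for the passenger gene Cdca8.

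The spread between animals was larger in NTA than in water for 23 of 24 mitotic members (95.8%), against 52.2% of all genes and 16 of 24 replication members. The median SD of the mitotic members was 0.13 in water and 0.40 in NTA, that of the replication members 0.11 in both groups, and that of all genes 0.11 in water and 0.12 in NTA. Without NTA 1 the SD of the remaining pair of NTA arrays was still the larger for 17 of 24, and without NTA 2 for 19 of 24.

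**Figure D3:**
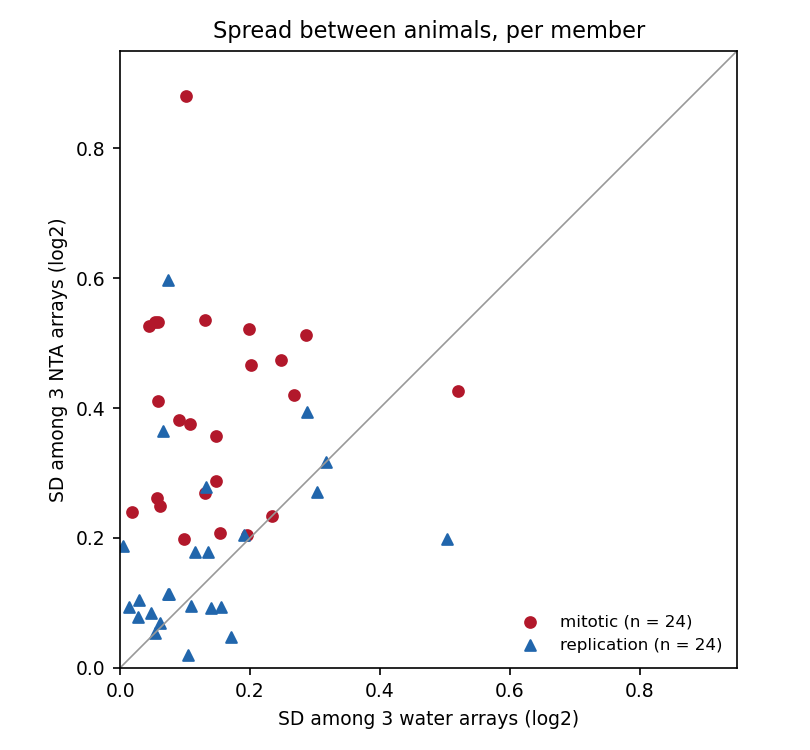
SD between the 3 NTA arrays (vertical) against the SD between the 3 water arrays (horizontal), log2 units, 1 point per member (24 mitotic as red circles, 24 replication as blue triangles), with the line of equal SD. Of the mitotic members, 23 lie above the line, with a median SD of 0.40 in NTA and 0.13 in water.

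Pairs of arrays on 1 slide were compared to see the split within a slide. NTA 3 lay above NTA 1 on slide 2 for 21 of 24 mitotic members, with a median difference of 0.37, where all genes had a median of -0.01 and the replication members 0.09. On slide 3, NTA 2 lay above water 1 for 22 of 24, with a median of 0.31 (0.02 over all genes and 0.19 over the replication members). On slide 1, which held 2 water animals, water 3 lay above water 2 for 20 of 24, with a median of 0.11. The widest gap, between NTA 2 and NTA 1, lies between slides, and the pair on slide 3 differs in treatment as well as animal. The part of the slide in the split was not tested.

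The comparison of NTA with water depended on which animals were set against each other. Within the shared slide the median difference of the mitotic members was 0.31, and within the other scan day (NTA 1 and NTA 3 against water 2 and water 3) it was -0.11, with 4 of 24 above 0. The difference was above 0 on the shared slide and below 0 on the other scan day for 18 of 24 mitotic members, against 19.3% of all genes. Plk1 showed this with 0.41 within the slide and -0.19 within the other day, and Aurkb with 0.50 and -0.47. Replication members had medians of 0.19 and 0.04. With 1 NTA animal on the second scan day, the animal and the day cannot be told apart for NTA 2.

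**Figure D4:**
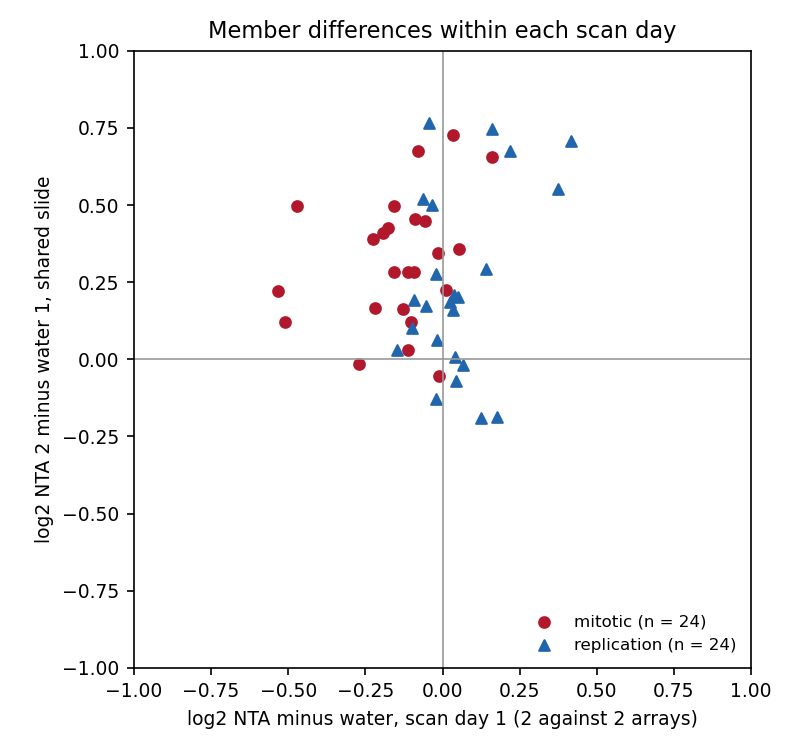
Log2 NTA minus water of each member within the shared slide (vertical, NTA 2 minus water 1) against that within the other scan day (horizontal, mean of NTA 1 and NTA 3 minus mean of water 2 and water 3). Red circles are the 24 mitotic and blue triangles the 24 replication members. The mitotic medians are 0.31 vertically and -0.11 horizontally.

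Other measures also differed between the 3 NTA animals. The macrophage score (7 of 9 listed markers tested) was -0.12, 0.03 and -0.11 in water and 0.29, -0.37 and 0.28 in NTA, so NTA 2, the animal with high mitotic genes, was the lowest array. The summed level of those markers, in units of the array's 75th percentile, was 92.7 to 109 in water and 98.9 to 153 in NTA, with 98.9 in NTA 2. That sum is of linear signals and rests mostly on Lyz2, at log2 values of 6.23 to 6.98. The next brightest, C1qb, stood at 2.98 to 3.92. Of the listed macrophage markers Cd163 and Itgam did not pass the filter. The lymphocyte score (6 of 8 tested) was highest in NTA 1 at 0.35, with summed levels of 1.31 to 1.52 in water and 1.38 to 1.76 in NTA. Those levels rest mostly on Cd3d, the brightest of the 6 markers. The part of these cells in the mitotic split was not tested.

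Markers of injured and repairing tubule (10 of 12 tested, summed level 37.6 to 44.2 in water and 44.8 to 69.2 in NTA) had a score of -0.14, -0.12 and -0.36 in water and 0.40, 0.21 and 0.01 in NTA. All 3 NTA arrays lay above the water arrays, in the order NTA 1, NTA 2, NTA 3, which is not the order of the mitotic score. Clu (clusterin), a secreted chaperone of injured tubules, stood at 3.63, 3.25 and 2.51 in water and 5.002, 4.07 and 3.80 in NTA, without overlap (difference 1.16 ± 0.41, adjusted p = 0.357). Anxa2, named after its values were seen, was also higher without overlap (0.27 ± 0.07, adjusted p = 0.277). The summed level is of linear signals, in which bright markers such as Clu and Anxa2 weigh most. Havcr1 (KIM-1) differed by 0.58 ± 0.53, Lcn2 (NGAL) by 1.21 ± 0.87 and Spp1 (osteopontin) by 0.45 ± 0.37, with overlapping groups. Single water arrays weighed on these values, since Lcn2 stood at -4.95 in water 3 and at -1.81 and -1.91 in the other water arrays and differed by 0.17 without water 3, while Havcr1 differed by 0.087 without water 1 and 1.08 without water 3, and Spp1 by 0.15 without water 2. Of the 10 markers tested 8 lay above 0 and 2 below, none past the adjusted threshold. The 2 below, named after their values were seen, were the adhesion molecule Vcam1, lower in NTA without overlap (-0.23 ± 0.10, adjusted p = 0.409), and the intermediate filament Vim (-0.06 ± 0.10). The proximal tubule score was lowest in NTA 1 at -0.17. The share of probes well above background was 73.4% in NTA 1, 68.4% in NTA 2 and 69.3% in NTA 3, beside 68.9% to 73.5% in water. The part of these measures in the mitotic split was not tested.

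Among the members, the replication genes held most of the higher values in NTA. Their median difference was 0.08 and 21 of 24 lay above 0 (87.5%), where the mitotic members had 0.01 and 13 of 24, and all genes 0.02 and 56.4%. With the mean of all probes of a gene in place of the brightest, the replication median was 0.035, and within the other scan day 14 of 24 lay above 0. The differences of most of them were small against their errors (median SE 0.10). The 31 further replication genes tested did not share the higher values, with 15 above 0, 16 below and a median of -0.005. Of the 23 further mitotic genes tested, 16 lay above 0 and 7 below, with a median of 0.07. At an unadjusted p under 0.05, 2 members were higher in NTA and none lower, both of them replication genes (7.76% of all genes were higher and 4.51% lower at that level). Including Tpx2, 3 of 48 members were higher in NTA without overlap and none lower without overlap, where 13.0% and 7.25% of all genes were (20.2% in either direction). These shares of members lie below those of all genes.

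The G1/S regulators, which start S phase, had differences above 0 in 3 of 3 genes. Ccne2, cyclin E2, stood at -4.83, -4.54 and -4.53 in water and -4.17, -4.13 and -4.07 in NTA. Each NTA array lay above every water array, and the 3 lay close together, with a difference of 0.51 ± 0.10, 1.43-fold, and the smallest adjusted p of the members (0.211, and 0.193 to 0.402 over the alternatives). Under normexp background correction on the median signal, an alternative added after the data were seen, its difference was 0.26. A dimmer probe of Ccne2, well above background on 4 of the 6 arrays, differed by 0.19, with NTA 2 as its lowest array. Ccne1, cyclin E1, stood at -3.67, -3.26 and -3.81 in water and -3.64, -2.90 and -3.52 in NTA, overlapping, with NTA 2 alone above the water range (difference 0.23 ± 0.24, adjusted p = 0.746). E2f1, the activating E2F factor, stood at -1.58, -1.37 and -1.61 in water and -1.63, -1.08 and -1.41 in NTA, with NTA 1 lowest and NTA 2 highest as in the mitotic genes (difference 0.14 ± 0.16).

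In nucleotide supply the 4 genes diverged. Tk1, the thymidine kinase of S phase, stood at 0.22, 0.45 and 0.34 in water and 0.69, 0.90 and 0.54 in NTA, without overlap (difference 0.37 ± 0.11, 1.29-fold, adjusted p = 0.319, and 0.224 to 0.556 over the alternatives). The dimmer probe of Tk1 stood at -1.70, -1.34 and -1.45 in water and -1.21, -1.01 and -1.55 in NTA. By that probe the groups overlapped, with a difference of 0.24. Rrm2, the small subunit of ribonucleotide reductase that accumulates in S and G2 phase, stood at 1.02, 0.89 and 0.89 in water and 0.62, 1.77 and 1.49 in NTA. It followed the mitotic order, with NTA 1 below and NTA 2 and NTA 3 above all water arrays (difference 0.36 ± 0.29, adjusted p = 0.66). The large subunit Rrm1 differed by 0.01 ± 0.07 and did not share that order, since NTA 2 was its lowest array. Tyms, thymidylate synthase, stood at -0.69, -0.54 and -0.75 in water and -0.74, -0.66 and -0.85 in NTA, overlapping (difference -0.09 ± 0.09, the lowest of the replication members, adjusted p = 0.725). Under normexp the Tyms difference was -0.00069.

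Origin licensing genes, which load the replicative helicase, had differences above 0 in 7 of 7 tested genes, with none past the test. Cdc6, a loader of that helicase, stood at -5.39, -5.26 and -5.29 in water and -4.54, -4.83 and -5.26 in NTA. NTA 1 was its highest array, NTA 3 lay within the water range, and the difference was 0.43 ± 0.18 (adjusted p = 0.425), or 0.21 under normexp and 0.26 without NTA 1. The 5 helicase subunits tested differed by 0.02 ± 0.08 for Mcm2, 0.13 ± 0.20 for Mcm3, 0.10 ± 0.07 for Mcm4, 0.03 ± 0.12 for Mcm6 and 0.01 ± 0.06 for Mcm7, all overlapping. Mcm6 itself stood at -3.61, -3.34 and -3.52 in water and -3.52, -3.60 and -3.26 in NTA, with NTA 3 the highest and water 1 the lowest array. Cdt1, the licensing factor that works with Cdc6, stood at -4.78, -5.39 and -4.94 in water and -5.09, -4.49 and -4.96 in NTA, with NTA 2 highest and water 2 lowest (difference 0.19 ± 0.22, adjusted p = 0.767).

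At the replication fork no gene of 7 tested differed by more than 0.08. Pcna, the sliding clamp of DNA polymerases, stood at 1.35, 1.502 and 1.42 in water and 1.32, 1.55 and 1.42 in NTA, with NTA 1 lowest and NTA 2 highest within a narrow range (difference 0.00 ± 0.08). Lig1, the ligase of lagging strand fragments, stood at 1.80, 1.77 and 1.78 in water and 1.85, 1.96 and 1.77 in NTA, overlapping (difference 0.08 ± 0.07, adjusted p = 0.697). The differences of this group ran from -0.06, for the primase subunit Prim1, to 0.08, for the clamp loader subunit Rfc4. Cdc45, a helicase cofactor, stood at -1.001, -1.007 and -1.011 in water and -1.09, -0.72 and -0.96 in NTA. Its water arrays agreed within 0.01, while NTA 1 lay below and NTA 2 and NTA 3 above them, the order of the mitotic genes on a smaller scale (difference 0.08 ± 0.10, adjusted p = 0.8).

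**Figure D5:**
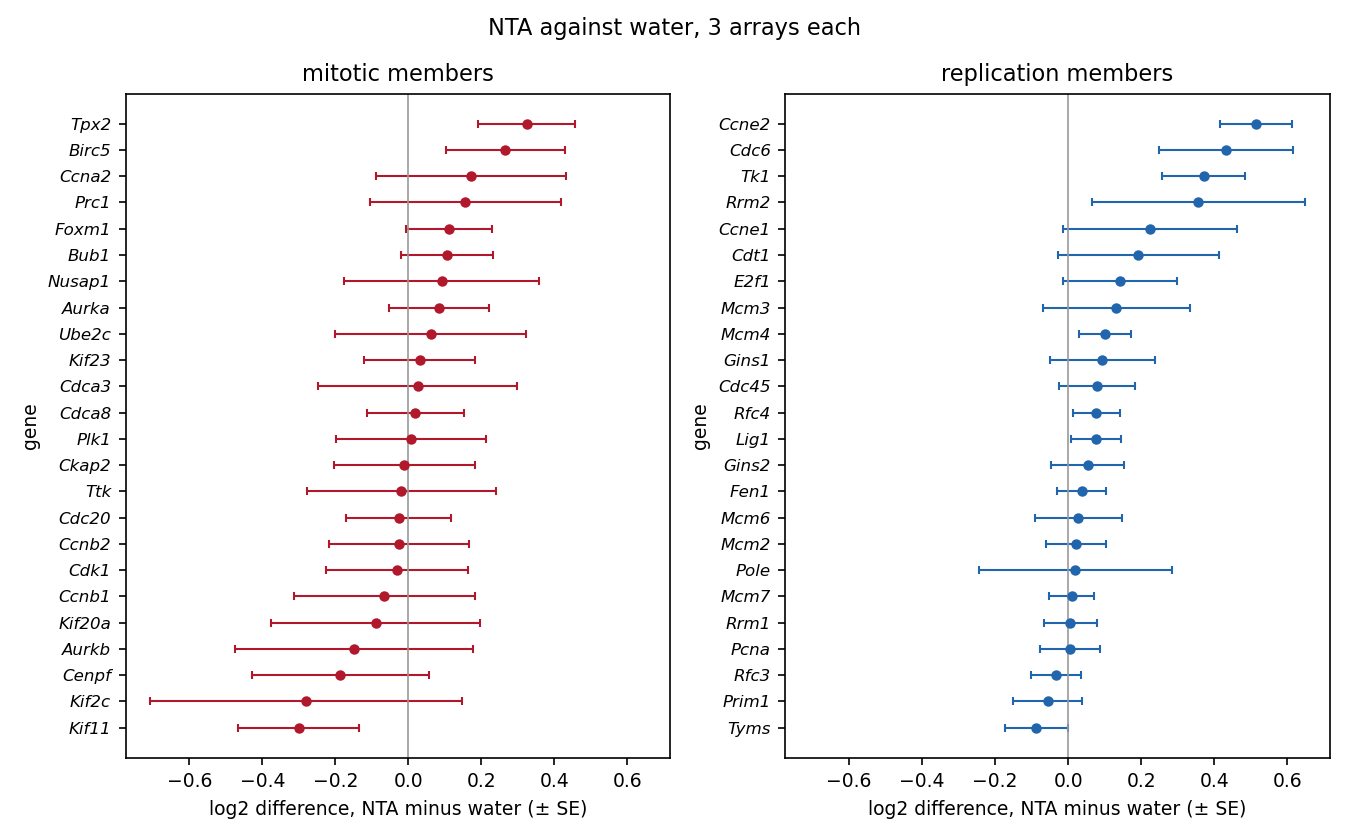
Log2 difference of NTA minus water (point) with its SE from limma (bar), 3 arrays per group, for the 24 mitotic (left) and 24 replication members (right), sorted by size. Of the replication members 21 lie above 0, led by Ccne2 at 0.51, and of the mitotic members 13.

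Several probes of a gene could be compared for 22 members with at least 2 probes above background on all arrays. For 13 of them all probes gave the same sign of NTA minus water and for 9 they did not. Rrm2 ranged from -0.52 to 0.36 over 4 probes and Mcm3 from -0.02 to 0.67 over 4. Cdt1 is not among the 22, since its dimmer probe was well above background on only 5 arrays. That probe stood at -7.86 in NTA 2, beside -5.89 in NTA 1 and -5.69 in NTA 3. Where the mean of its kept probes replaced the brightest, the Cdt1 difference was -0.52 and rested on that value. The position of NTA 1 was steadier. It was the lowest array by every probe for 9 of 10 mitotic members with several probes, including all 3 probes of Ccna2 and of Cenpf, and for 2 of 12 replication members, Pcna and Rrm2.

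The wider cell cycle list, 115 genes that are not members, had 87 tested, of which 50 lay above 0 with a median difference of 0.02. At an adjusted p under 0.05 none passed, and at an unadjusted p under 0.05, 1 was higher and 4 lower (7.76% and 4.51% of all genes). Without overlap 7 were higher and 5 lower (13.0% and 7.25% of all genes), so these counts do not set the list apart from all genes. Ccnd2, the G1 cyclin D2, stood at -0.53, -0.48 and -0.60 in water and -1.29, -1.11 and -0.92 in NTA, without overlap and lower in every NTA animal (difference -0.57 ± 0.11, adjusted p = 0.205, and 0.141 to 0.480 over the alternatives). Its relative Ccnd1 differed by -0.09 ± 0.15 and their partner kinase Cdk4 by -0.15 ± 0.08, both overlapping, and 5 of 7 genes of that set lay below 0.

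Among the CDK inhibitors and pocket proteins 7 of 9 lay above 0, with a median of 0.13. Cdkn1a (p21), the inhibitor induced by p53, stood at 4.69, 4.83 and 4.78 in water and 4.85, 5.09 and 4.84 in NTA, without overlap but by a small step (difference 0.16 ± 0.09, adjusted p = 0.536), and the sign turned where the mean of its probes was used. Cdkn1b (p27) differed by 0.01 ± 0.06. In the origin recognition complex, Orc2 stood at -1.36, -1.29 and -1.31 in water and -1.46, -1.47 and -1.52 in NTA, without overlap and lower in NTA (difference -0.16 ± 0.06, adjusted p = 0.349), and Orc6 differed by -0.39 ± 0.14, also without overlap. The other subunits tested overlapped and went both ways, with -0.05 ± 0.06 for Orc3, 0.06 ± 0.06 for Orc4 and 0.09 ± 0.06 for Orc5, while Orc1 did not pass the filter. With the mean of all its probes the Orc2 difference was -0.09, and under normexp the Orc6 difference was -0.17. Gins4, of the same helicase cofactor as Gins1, was higher without overlap (0.21 ± 0.08), and so was Lin54, the MuvB subunit that binds the CHR (0.13 ± 0.05). With the mean of all its probes Lin54 differed by 0.06. Mybl2, which encodes B-MYB, differed by -0.07 ± 0.21.

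Of 13 DNA damage response genes tested, 8 lay above 0, with a median of 0.10. Fancd2, of the crosslink repair pathway, stood at -4.15, -4.09 and -4.47 in water and -3.84, -3.84 and -4.08 in NTA, without overlap (difference 0.32 ± 0.13, adjusted p = 0.407). The checkpoint kinase Chek1 differed by 0.16 ± 0.12, overlapping. Gadd45a, a stress-induced growth arrest gene named after its values were seen, stood at 3.44, 3.14 and 3.41 in water and 2.72, 3.08 and 3.07 in NTA, lower without overlap (difference -0.37 ± 0.14, adjusted p = 0.371). It was the 1 gene of these 13 with an unadjusted limma p under 0.05, against 12.3% of all genes. Without overlap 2 were higher and 1 lower, against 13.0% and 7.25% of all genes. The higher ones were Fancd2 and Bax (0.10 ± 0.06), the latter named after its values were seen.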

How the data were processed

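Total RNA of 6 renal cortices was measured on 1-colour Agilent arrays, and the scans were read with Feature Extraction 10.7.1.1, per the file headers (10.7 in the submitters' processing notes). The deposited intensity is the background-corrected processed signal on a linear scale. The authors' deposited value table is a ratio, that signal divided by a constant within 0.072% of the array's 75th percentile. The deposited flags per spot, per the file headers, gave signals well above background, saturation and outliers.

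Here log2 signal minus the array's log2 75th percentile was used. Control and outlier spots were left out, probes were kept where well above background on all 3 arrays of a group, and the brightest probe stood for a gene. Probes were named by accession through RefSeq (GRCr8), 27460 with 1 symbol and 34197 unnamed here. NTA was compared with water by limma 3.58.1 in R 4.3.3 (lmFit, eBayes, two-sided, Benjamini-Hochberg adjusted p under 0.05 over 11965 genes), tested on simulated data. SE is from that model and SD is between arrays. Scan day is from the file headers and slide from the file names. The members and lists were chosen with earlier results of these data known. Named genes were all members past the threshold, the 5 members of smallest p in each direction, the 3 of the wider list in each direction, and a fixed set. Others were chosen after their values were seen, among them the promoters so described. A named gene of the wider list and a promoter stretch are not reported here. Replicate numbers gave no sign of pairing the animals: deviations of same-numbered arrays from their group means correlated at 0.073, -0.092 and 0.036 over 11957 genes. Those of different-numbered arrays ran from -0.123 to 0.101. With 3 arrays a group this check could not exclude pairing. Alternatives changed the scaling, background correction, filter, probe rule, variance model, batch terms and arrays used.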

Additional observations from a re-analysis of the deposited data

How the results depend on the processing

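None of the 48 members passed in any alternative, and their smallest adjusted p (limma, Benjamini-Hochberg) lay between 0.193 and 0.402. The number of all genes past the threshold, 9, became 0 under quantile normalization, without the filter, with scan day as a block and with the replicate block, 20 under normexp on the median signal (added after the data were seen, because the planned normexp on the mean signal was not run, the files having no such column), 38 with trend and robust estimation, 5 with slide as a fixed block, and 0 to 5 without 1 array, of which only leaving out NTA 2 gave 5. The replicate block, whose numbers gave no sign of pairing the animals, called 0 members too. Within the shared slide, and equally with a fixed slide term, which rests on NTA 2 and water 1, the medians were 0.25 for all members, 0.31 for mitotic, 0.19 for replication and 0.12 for the wider cell cycle list, and the proliferation score difference was 0.28. Within the other scan day they were -0.04, -0.11 and 0.04 for the first 3, and -0.045 for the score. With the mean of all probes the replication median was 0.035, the mitotic minus replication median -0.027 and the score 0.033, beside 0.076, -0.063 and 0.064 with the brightest probe. Without 1 array, the mitotic median ran from -0.17 (without NTA 2) to 0.20 (without NTA 1), the replication median from 0.03 to 0.11, that of all members from -0.02 to 0.17, the mitotic minus replication median from -0.20 to 0.09, the score from -0.05 to 0.18 and the wider list from -0.03 to 0.06. Under the other sets of values, NTA 1 was the lowest array for 19 or 20 mitotic members and NTA 2 the highest for 18 to 21, and leaving out 1 array left a larger NTA SD in 17 to 24 of them.

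Of 45 named genes tested, 21 kept their sign in every alternative, among them Ccne2, Tk1, Tpx2, Cdc6 and Birc5. None passed the threshold. Under normexp the sizes of Ccne2 (0.26), Cdc6 (0.21), Cenpf (-0.042), Kif2c (-0.072), Foxm1 (0.068), Cdt1 (0.12), Orc6 (-0.17) and Havcr1 (0.25) fell by more than 1.5 times. So did those of Tyms (-0.00069), Ccnb1 (-0.015), Cdc45 (0.050), Ccnd1 (-0.045) and Mybl2 (-0.0091), which were small before. Signs turned with slide as a fixed block for Kif11 0.12, Tyms 0.031, Kif2c 0.22, Cdk1 0.16, Ccnb1 0.029, Aurkb 0.50, Ccnd1 0.079 and Cdkn1b -0.066. With the mean of all probes they turned for Plk1 -0.0034, Mcm2 -0.078, Rrm2 -0.053, Cdt1 -0.52 and Cdkn1a -0.19, under quantile normalization for Pcna -0.013, Mcm6 -0.0029, Cdkn1b -0.012 and Slc34a1 -0.031, under normexp for Aurkb 0.069, Pcna -0.055 and Cdkn1b -0.020, and with slide as a random block for Plk1 -0.012 and Pcna -0.0052. Leaving out 1 array in turn gave ranges that crossed 0 for Aurkb -0.37 to 0.15, Ccna2 -0.11 to 0.42, Ccnb1 -0.23 to 0.20, Ccnd1 -0.22 to 0.044, Cdc20 -0.12 to 0.088, Cdc45 -0.022 to 0.16, Cdk1 -0.17 to 0.19, Cdkn1b -0.028 to 0.052, Cenpf -0.41 to 0.092, E2f1 -0.0043 to 0.27, Foxm1 -0.00087 to 0.19, Kif2c -0.54 to 0.23, Mcm2 -0.017 to 0.088, Mcm6 -0.072 to 0.10, Mybl2 -0.32 to 0.085, Pcna -0.055 to 0.058, Plk1 -0.21 to 0.20, Prim1 -0.13 to 0.0040, Slc34a1 -0.016 to 0.065. The cause of these turns was not tested. With 3 arrays a group, the median SE was 0.20 for mitotic and 0.10 for replication members. Differences of that size could not be told from the spread. Larger ones did not pass either, such as Ccne2 at 0.51 ± 0.10 (limma adjusted p = 0.211). Kif2c was not well above background in NTA 1.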
